A study of Mus musculus with 12 samples.

Results

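The 38 glutathione and antioxidant genes described here were followed in whole bone marrow of mice, out of 21853 genes in the deposited expression table. They are a list of named genes: the gamma-glutamyl transferases Ggt1 and Ggt5, the enzymes that make and recycle glutathione, and glutathione peroxidases and transferases. The list also holds peroxiredoxins, catalase and superoxide dismutases, and thioredoxins and their reductases. The NRF2 pathway genes Keap1, Nfe2l2 and Nqo1, and enzymes of a pathway that supplies NADPH, complete it. All 38 were found under 1 identifier each. The list was built with results of these data in view. The measured values used in this choice were fold changes: Ggt1 was chosen by its change under DEIX, in irradiated and in unirradiated mice, and Mgst3 by its change under DEIX in irradiated mice, so the differences of these genes in those comparisons, and in any comparison that holds them, are given as a description with no test and are left out of its counts.

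The labels name the mice as B6 and give no age or sex. Control mice were not irradiated. TBI mice received 5 Gy of total body irradiation with gamma rays at 0.66 Gy/min and olive oil (100 µL, the vehicle) by gavage. TBI+DEIX mice received the same irradiation and DEIX by mouth, in a daily dose of 25 mg/kg over 14 days. DEIX mice received DEIX and no irradiation. The title of the series names deinoxanthin, a carotenoid of radiation-resistant Deinococcus bacteria. Marrow was taken 14 days after irradiation, with 3 libraries in each of the 4 groups. The labels do not say whether each library came from its own mouse, so the p-values below measure the spread between these libraries, which may be technical. No vehicle or gavage is stated for the control mice, and an effect of dosing cannot be told apart from the treatments in comparisons with control. A volume of olive oil is stated for the TBI mice only. Whether the vehicle was matched in TBI+DEIX against TBI is therefore not known, and its effect cannot be told apart from that of DEIX there.

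Glutathione is a small thiol made from glutamate, cysteine and glycine, first by glutamate-cysteine ligase (a catalytic subunit from Gclc, a modifier subunit from Gclm) and then by glutathione synthetase (Gss). Glutathione peroxidases spend it on peroxides, glutathione transferases join it to reactive compounds, glutathione reductase (Gsr) restores it with NADPH, and gamma-glutamyl transferases on the cell surface break down glutathione outside the cell so that its amino acids can be taken up again. Peroxiredoxins and thioredoxins form a parallel system that also draws on NADPH, much of it from the pentose phosphate pathway. KEAP1 holds the transcription factor NRF2 (gene Nfe2l2) in check, and NRF2 drives many of these genes through antioxidant response elements. In marrow, neutrophils use NADPH for their oxidative burst, and red cell precursors hold large amounts of catalase and peroxiredoxin 2.

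Levels are given in FPKM, the fragments of a gene scaled to its transcript length and to the mapped fragments of the library. Total reads per library are unknown. From the steps between low values, 1 read was worth between 0.895 and 2.353 times as much FPKM as in control replicate 1, and the 3 TBI+DEIX libraries, at 2.353, 1.517 and 1.896, included the 2 shallowest. Such estimates are rough, since for TBI replicate 1 the runner-up value was nearly as good (ratio 1.01). Each library had from 10359 to 10832 genes at 1 FPKM or more. The root mean square of the SD within a group, on the log2(FPKM + 1) scale, was 0.199 in control, 0.248 in DEIX, 0.253 in TBI and 0.442 in TBI+DEIX, so the TBI+DEIX libraries differed most among themselves.

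One library stood apart in a way that touches short genes of the list. In TBI+DEIX replicate 1, genes whose longest coding transcript is under 1000 bases lay below the other 11 libraries, by a median of -0.74 on the log2(FPKM + 1) scale over 659 tested genes. The median was -0.24 at 1000 to 1999 bases (2279 genes), 0.02 at 2000 to 3999 bases (4486 genes) and 0.16 at 4000 bases or more (3570 genes). The listed genes followed the same order, with medians of -0.92 (5 genes), -0.79 (14), 0.13 (15) and 0.48 (3). This library held the lowest value of 16 of the 37 tested genes, while TBI+DEIX replicate 3 held the highest of 12. Control replicate 3 lay the other way, at 0.44 for transcripts under 1000 bases. The part of transcript length in the differences below was not tested, and results that rest on TBI+DEIX replicate 1 are also given without it.

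**Figure D1:**
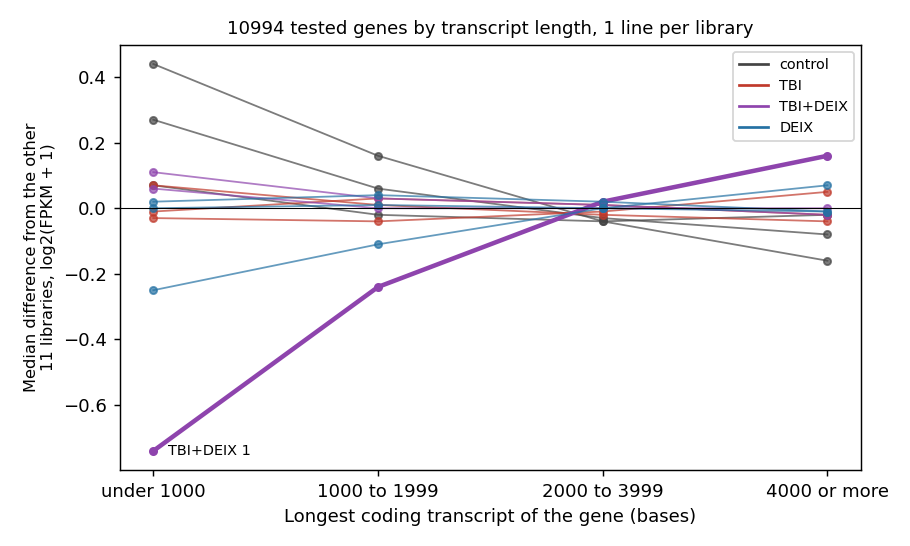
Median difference of each library from the other 11 libraries on the log2(FPKM + 1) scale (vertical axis), for 10994 tested genes in 4 classes of transcript length in bases (horizontal axis), with 1 line per library coloured by group. TBI+DEIX replicate 1 (thick line) runs from -0.74 for the shortest class to 0.16 for the longest, and control replicate 3 starts highest, at 0.44.

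The listed genes spanned a wide range of levels. Gpx1 had the highest mean over the 12 libraries, 1220.4 FPKM, followed by Prdx5 at 881 and Tkt at 655. The lowest was Gsta4, from 0.254 to 1.16 FPKM, which did not reach an FPKM of 1 in 3 libraries and was not tested. The other 37 were tested, and the difference of a gene is the difference of group means of log2(FPKM + 1), on which low values change less than their ratio would show. A gene was called at an adjusted p under 0.05 in limma, with Benjamini-Hochberg adjustment over all 10994 tested genes. Where no other setting is named, called and not called refer to the unweighted fit of FPKM over all 12 libraries.

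TBI against control asks what differed 14 days after irradiation and vehicle. Of the 37 genes, 2 were called, Txnrd1 and Prdx6, both higher in TBI. This was 5.41% of the genes, beside 3.99% of all tested genes (0.891% higher, 3.1% lower). Their median difference was 0.17, beside 0.05 for all tested genes. The libraries of TBI and control did not overlap for 15 of the 37, with 14 higher and 1 lower in TBI, beside 38.2% of all tested genes.

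DEIX against control, in unirradiated mice, called 4 of the 36 genes other than Ggt1, all higher in DEIX: Ggt5, Gsr, Txnrd1 and G6pdx. This was 11.1%, beside 7.24% of all tested genes (4.52% higher, 2.72% lower). The libraries did not overlap for 11 of the 36, with 8 higher and 3 lower in DEIX, beside 40.6% of all tested genes. None of the 36 was called by limma when any 1 control library, DEIX replicate 1 or DEIX replicate 3 was left out. In these fits 4 to 8 of the 36 had an unadjusted p under 0.05. The same fits called 146 to 218 of all 10994 tested genes, beside 796 with all libraries. On the TPM scale (FPKM rescaled to a common sum per library) only G6pdx was called. That sum includes S100a8, S100a9 and Ngp, whose values of 0 in some libraries were read as failed estimates and which held from 0% of it in control replicate 3 to 26.4% in TBI+DEIX replicate 3. With the sum taken without these genes, an alternative added after the data were seen, Ggt5 and G6pdx were called. With the replicate number added to the fit (replicate block) only Ggt5 of the 36 was called, beside 640 of all tested genes.

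The comparison of TBI+DEIX with TBI takes the question of DEIX to irradiated marrow. Ggt1 and Mgst3 apart, it called 6 of 35: Ggt5 and Gsr were higher in TBI+DEIX, and Prdx2, Prdx3, Cat and Txnrd2 were lower. This was 17.1%, beside 8.1% of all tested genes (4.69% higher, 3.41% lower). The libraries did not overlap for 12 genes, 6 in each direction, beside 27.2% of all tested genes. With only these groups in the fit limma called no gene of the table, although 9 of the 35 had an unadjusted p under 0.05, and on the TPM scale it called only Txnrd2 of the 35. With the TPM sum taken without the failed estimates, Ggt5, Prdx2, Prdx3 and Txnrd2 were still called, joined by Prdx1 and Sod1, and Gsr and Cat were not. Without TBI replicate 3 limma called none of the 35, beside 5 of all 10994 tested genes. In that fit 11 of the 35 had an unadjusted p under 0.05. Without TBI+DEIX replicate 3 only Prdx4 was called, beside 51 of all tested genes. Leaving out TBI+DEIX replicate 1 gave 14 (8 higher, 6 lower), beside 2836 of all tested genes. With all libraries 891 of all tested genes were called.

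TBI+DEIX against control, which takes both treatments together, called 14 of the same 35, 40.0%, beside 30.0% of all tested genes (16.9% higher, 13.1% lower). Higher in TBI+DEIX were 8 of them: Ggt5, Gsr, Prdx6, Srxn1, Txnrd1, G6pdx, Pgd and Tkt. Lower were 6: Gclc, Gsto1, Prdx1, Prdx2, Sod1 and Txnrd2. The median difference of the 35 was -0.01, beside 0.02 for all tested genes, and without TBI+DEIX replicate 1 it was 0.35, beside 0.01. Without that library 20 were called, 15 higher and 5 lower, beside 4232 calls among all 10994 tested genes (60.2% of those calls higher). The 8 higher genes were all still called, joined by Mgst1, Mgst2, Nfe2l2, Gpx3, Glrx, Prdx5 and Taldo1. Prdx2 was no longer among the lower genes. On the TPM scale 9 were called: Gsr, Prdx6, Srxn1, Tkt, Gclc and Gsto1 were lost, and Prdx4 was called lower. With the sum taken without the failed estimates Gsr and Tkt were called again, as were Gpx3 (higher) and Gpx4, Prdx4 and Txn2 (lower), and Prdx6, Srxn1, Gclc and Gsto1 were not. The libraries did not overlap for 21 genes, 11 higher and 10 lower, beside 44.9% of all tested genes.

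Weighting the libraries by their spread (array weights) called more genes, in the list and over all 10994 tested genes. It called 14 of 37 in TBI against control (12 higher, 2 lower), beside 4218 of all tested genes. DEIX against control gave 15 of 36 (9 higher, 6 lower), beside 4508. TBI+DEIX against TBI gave 20 of 35 (11 higher, 9 lower), beside 4488. TBI+DEIX against control gave 26 of 35 (16 higher, 10 lower), beside 6187. Among the listed genes were several that the unweighted fit called in no comparison. Those were Keap1, Sod2, Gpx3, Glrx and Mgst2 in TBI against control, and Gpx3, Glrx and Gstp1 in DEIX against control. In TBI+DEIX against TBI they were Mgst1, Nfe2l2, Glrx, Prdx5, Taldo1, Gss and Txn1. In TBI+DEIX against control they were Nqo1, Nfe2l2, Mgst1, Mgst2, Gpx3, Glrx, Prdx4, Prdx5, Taldo1 and Gss. Ggt1 was also called with weights in TBI against control, the comparison that was not part of its choice.

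**Figure D2:**
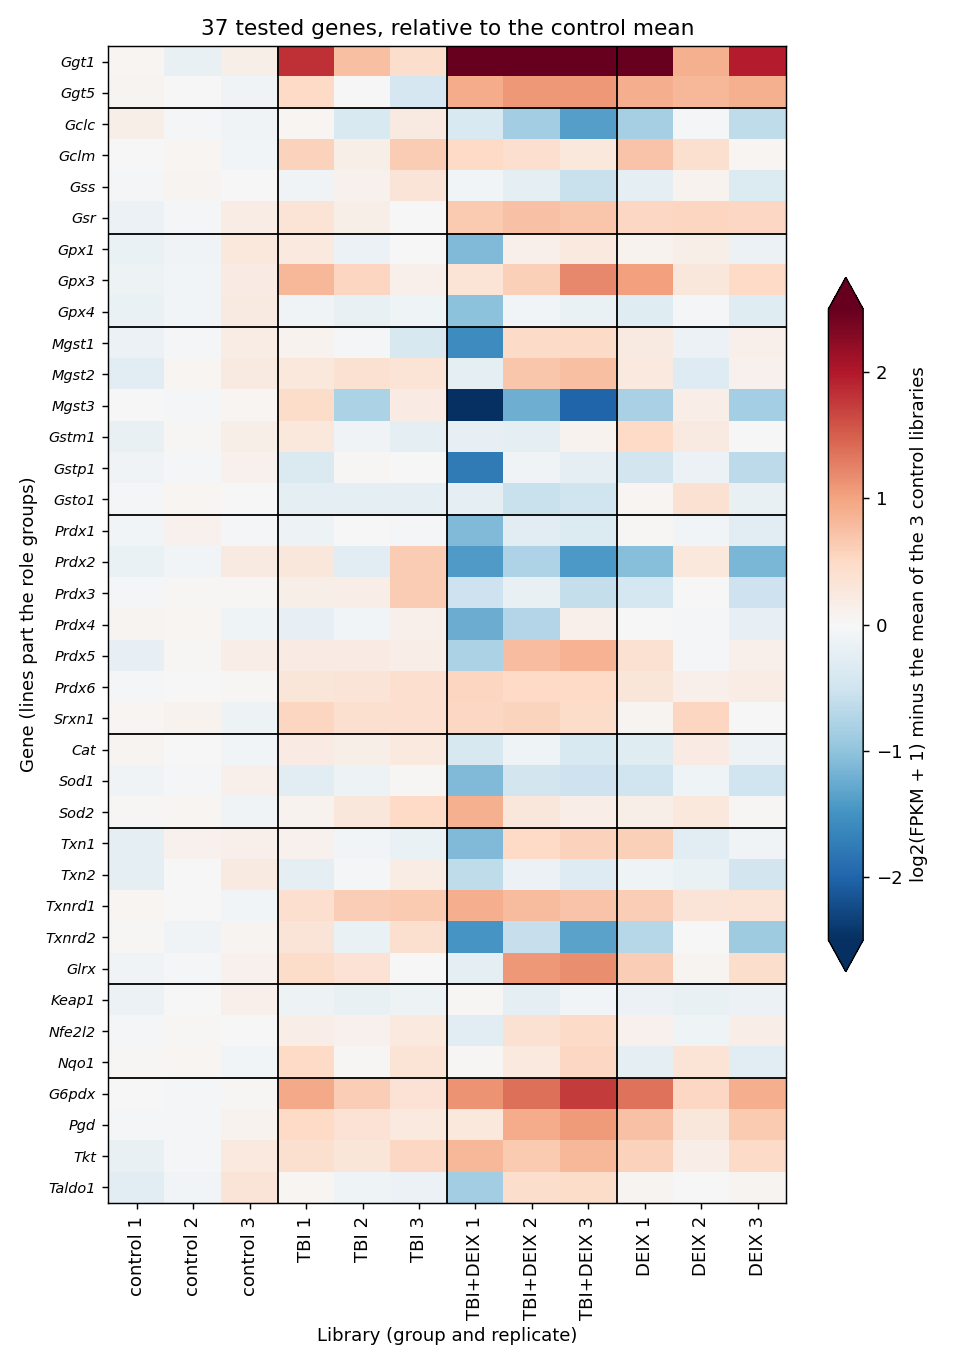
Heat map of log2(FPKM + 1) minus the mean of the 3 control libraries for the 37 tested genes (rows, parted by role) in the 12 libraries (columns, by group and replicate). Red is higher than control and blue lower, with colours that stop at -2.5 and 2.5. Ggt1 is red in all TBI+DEIX libraries, Mgst3 is blue there, and the column of TBI+DEIX replicate 1 holds the lowest value of 16 genes.

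**Figure D3:**
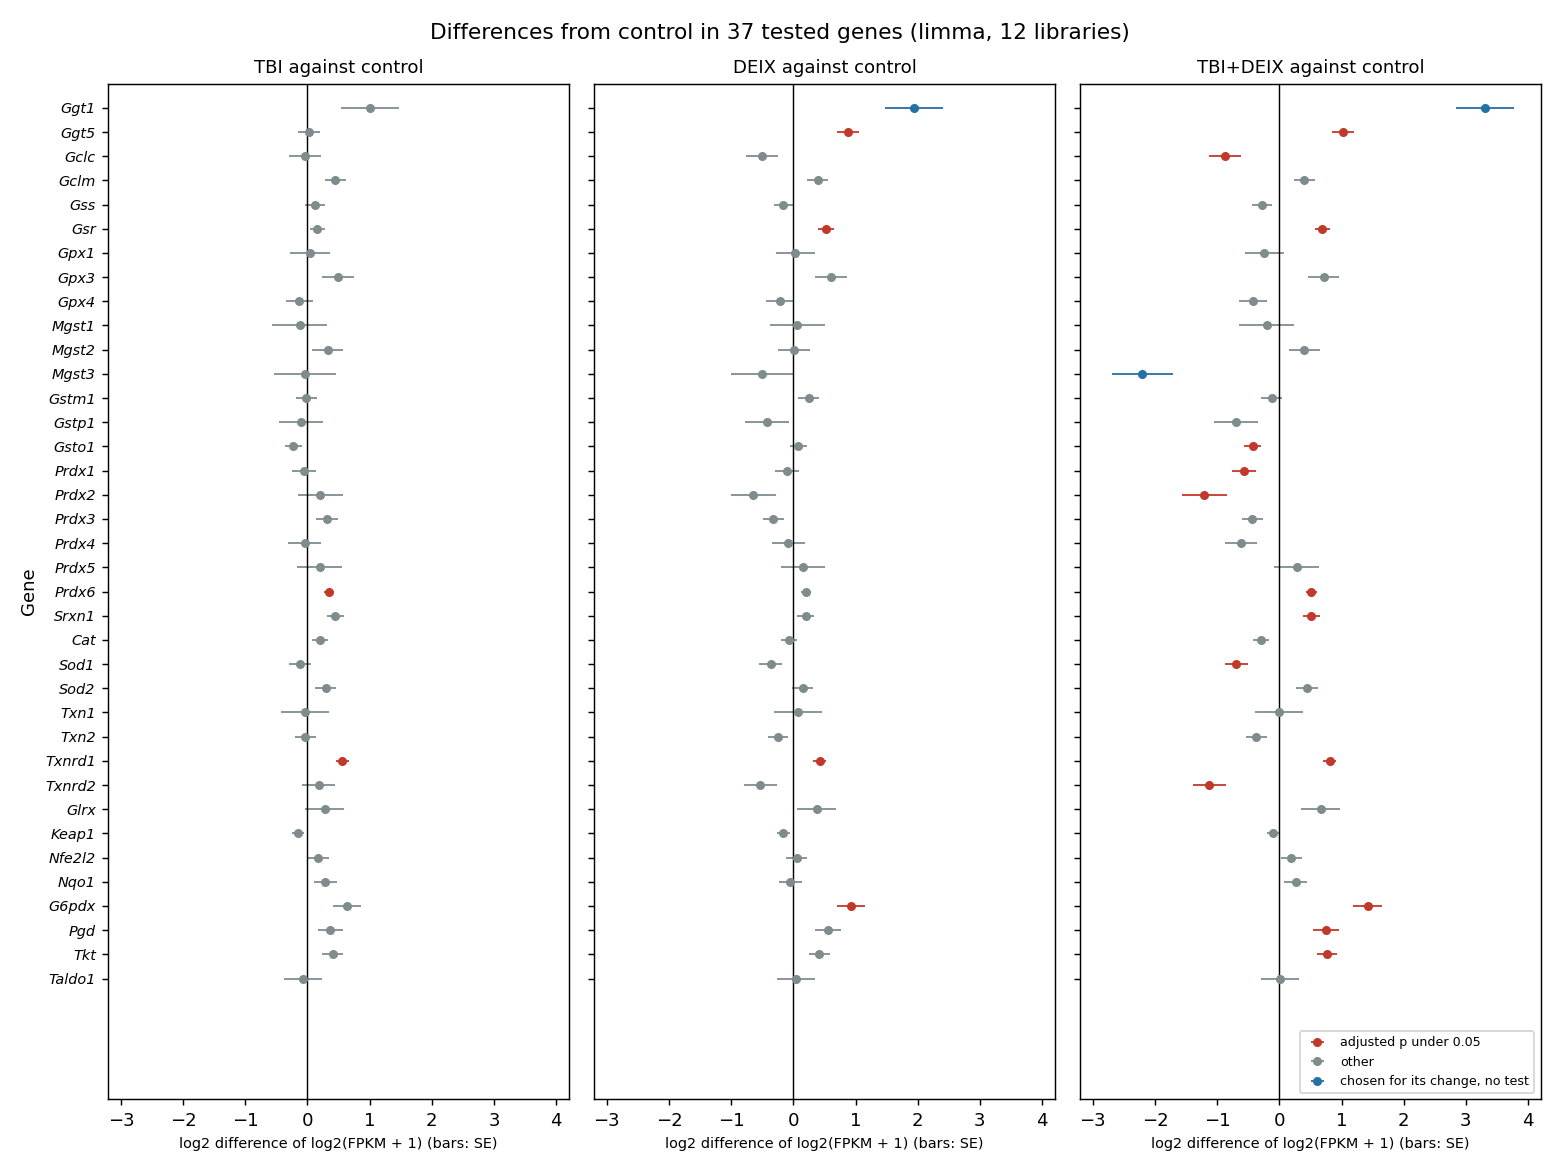
Differences from control on the log2(FPKM + 1) scale (points, with bars for the SE) for the 37 tested genes in TBI, DEIX and TBI+DEIX, fitted with limma over 12 libraries. Red points passed an adjusted p of 0.05, grey points did not, and blue points mark Ggt1 and Mgst3 in the comparisons for which they were chosen or that contain them. The largest difference is Ggt1 in TBI+DEIX, at 3.31, and the largest in the other direction is Mgst3 in TBI+DEIX, at -2.21.

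Both gamma-glutamyl transferases were higher in mice given DEIX, and Ggt1 showed the largest difference of the list. Ggt1 (ENSMUSG00000006345.10, chromosome 10, 75561604 to 75586200, plus strand, build GRCm38) encodes the main enzyme that starts the breakdown of glutathione outside the cell. It measured 4.07, 3.28 and 4.37 FPKM in control, 16.4, 7.19 and 5.60 in TBI, 40.0, 43.3 and 61.1 in TBI+DEIX, and 37.3, 7.99 and 17.9 in DEIX. All TBI+DEIX libraries lay above all others, the control libraries lay below all others, and the TBI and DEIX libraries overlapped. DEIX replicate 2, at 7.99 FPKM, lay within the range of TBI, far below DEIX replicate 1 at 37.3. The group means were 3.90 ± 0.565 FPKM in control, 21.1 ± 14.9 in DEIX, 9.72 ± 5.82 in TBI and 48.1 ± 11.4 in TBI+DEIX (SD, n = 3). As a description, the difference on the log2(FPKM + 1) scale was 3.31 (SE 0.47) for TBI+DEIX against control, 2.30 (SE 0.47) for TBI+DEIX against TBI and 1.94 (SE 0.47) for DEIX against control. TBI against control was not part of the choice of Ggt1, and there the difference of 1.00 (SE 0.47) was not called by limma (adjusted p 0.285), although no library of one group overlapped the other.

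Ggt5 (chromosome 10, 75589340 to 75617200, plus strand), which starts 3139 bases beyond the end of Ggt1 on the same strand, encodes a related enzyme that also converts the leukotriene C4 to D4. It measured 14.6, 13.9 and 12.9 FPKM in control, 19.8, 13.8 and 9.997 in TBI, 27.1, 30.2 and 30.3 in TBI+DEIX, and 26.7, 25.4 and 26.3 in DEIX. Every library with DEIX lay above every library without it, and the TBI libraries straddled the control libraries. Ggt5 rose in TBI+DEIX against control, by 1.03 (SE 0.18, adjusted p 0.00212), in TBI+DEIX against TBI, by 1.01 (SE 0.18, adjusted p 0.017), and in DEIX against control, by 0.88 (SE 0.18, adjusted p 0.0196). The rise over control in TBI+DEIX was called under every left-out library and every alternative setting, while the rise over TBI was not called without TBI replicate 3 or TBI+DEIX replicate 3. TBI against control gave 0.02 (SE 0.18). No stretch of 75 bases of either gene's transcripts occurs in another gene of the annotation, so reads of that length would not be split between them.

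Since NRF2 acts through antioxidant response elements, promoters were searched for the core of that element, TGACNNNGC, on both strands, in windows of 250 bases before to 50 after each transcription start (RefSeq, GRCm38.p6). Of the 38 genes 33 had a window, and Ggt5, Gsr and Prdx6 were among those without one. A match was present for 10 of the 33, or 30.3%, beside 17.07% of 8781 tested genes with a window. Counted by window, genes with several starts included, it was 12 of 45, or 26.67%, for the list, beside 14.5% of 11190 windows of tested genes and 12.39% of 32851 windows of all genes. A match is a description of the letters and not a bound site. The following 5 matches, all outside annotated exons, are given on the plus strand, with the match in capitals and 25 bases on each side. They were picked as the gene with the largest difference (Ggt1) and as genes of the list that were called higher (Txnrd1), called lower (Prdx1, Sod1) or not called (Gclm).
Ggt1: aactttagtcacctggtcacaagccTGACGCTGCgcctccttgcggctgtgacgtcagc
Txnrd1: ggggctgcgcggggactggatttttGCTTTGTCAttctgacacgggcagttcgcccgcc
Gclm: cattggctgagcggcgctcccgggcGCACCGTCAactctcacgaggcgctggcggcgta
Prdx1: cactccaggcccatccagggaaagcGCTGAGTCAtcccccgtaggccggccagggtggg
Sod1: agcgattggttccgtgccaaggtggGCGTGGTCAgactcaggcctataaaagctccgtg

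The Ggt1 stretch lies at chr10:75571452-75571510, in an intron of a longer Ggt1 transcript, and its match begins 83 bases before a transcription start (position -83). Txnrd1 has its stretch at chr10:82859089-82859147, also in an intron of a longer transcript of its gene, with the match at -92. Those of Gclm (chr3:122245398-122245456, match at -134), Prdx1 (chr4:116685441-116685499, match at -133) and Sod1 (chr16:90220681-90220739, match at -56) lie upstream of the gene.

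**Figure D4:**
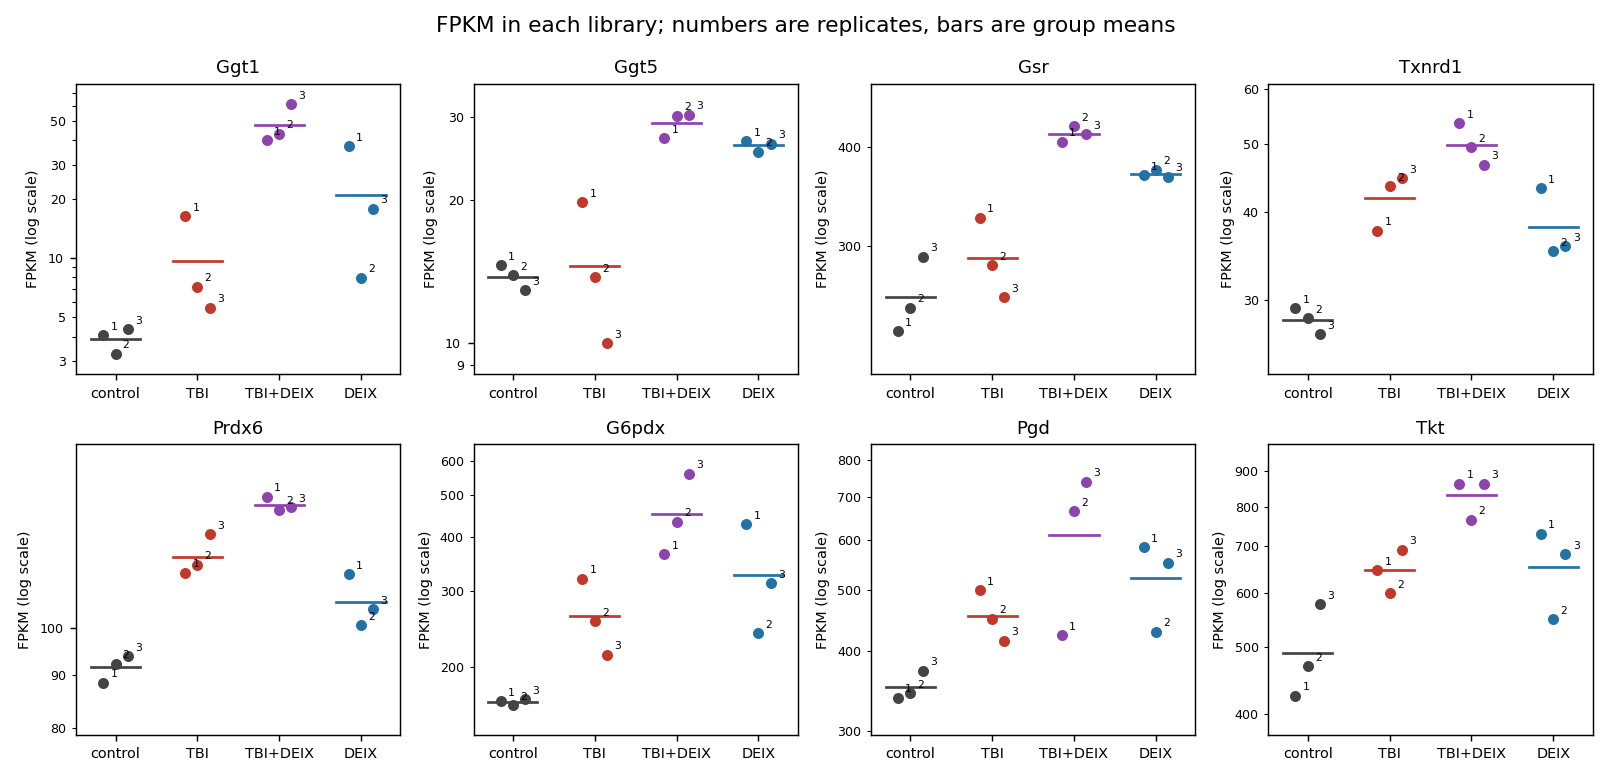
FPKM (log axis) of 8 genes called higher in TBI+DEIX against control or described as higher there, in each library of the 4 groups, with the replicate number beside each point and a bar for the group mean. Srxn1, also called higher there, is not shown. For Ggt1, Ggt5, Gsr, Txnrd1, Prdx6, G6pdx and Tkt all TBI+DEIX libraries lie above all TBI and control libraries, and for Pgd TBI+DEIX replicate 1, at 424.1 FPKM, lies within the TBI range.

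Of the genes for synthesis and recycling of glutathione, Gsr rose with DEIX and Gclc fell in TBI+DEIX. Gsr (chromosome 8, 33652523 to 33698163, plus strand), the reductase that restores glutathione, was the most abundant of the 4. It measured 233, 250.1 and 290.4 FPKM in control, 326, 283 and 258 in TBI, 406, 425 and 415 in TBI+DEIX, and 369, 374 and 367 in DEIX. The TBI+DEIX libraries lay above the DEIX libraries, which lay above all TBI and control libraries. Its rise was 0.69 (SE 0.13, adjusted p 0.00264) in TBI+DEIX against control, 0.53 (SE 0.13, adjusted p 0.0333) in TBI+DEIX against TBI and 0.53 (SE 0.13, adjusted p 0.0333) in DEIX against control. The rise over control in TBI+DEIX was lost only on the TPM scale, and not when the failed estimates were kept out of the sum. The rise over TBI was lost without TBI or TBI+DEIX replicate 2 or 3, and the rise in DEIX with each left-out library.

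Gclc (chromosome 9, 77754535 to 77794485, plus strand), the catalytic subunit of the first and rate-limiting step, measured 25.3, 22.0 and 21.5 FPKM in control, 23.6, 17.3 and 27.0 in TBI, 17.4, 12.1 and 8.25 in TBI+DEIX, and 12.4, 22.1 and 14.5 in DEIX. The TBI+DEIX libraries all lay below the control libraries, while DEIX replicate 2 lay among the control libraries and DEIX replicates 1 and 3 below them. Gclc fell in TBI+DEIX against control, a difference of -0.87 (SE 0.26, adjusted p 0.0278), a call that was lost without any 1 of the 3 control libraries or TBI+DEIX replicate 2 or 3. Its modifier subunit Gclm went the other way without a call in the fit of all groups (with only the compared groups it was called in TBI+DEIX against control): all libraries of the treated groups, from 44.2 to 69.9 FPKM, lay above the control libraries, from 40.6 to 43.7 FPKM, and TBI+DEIX against control gave 0.40 (SE 0.17, adjusted p 0.0946). Gss, which adds glycine to complete the molecule, ranged from 3.49 to 7.29 FPKM and was called in no comparison of the unweighted fit over all libraries, though it was called in TBI+DEIX against TBI without TBI+DEIX replicate 1 and, as said, with weights.

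None of the 3 glutathione peroxidases was called by limma in the unweighted fit of FPKM over all libraries, although Gpx3 was called higher in TBI+DEIX against control without TBI+DEIX replicate 1, and also with weights. At an unadjusted p under 0.05 only Gpx3 differed, in DEIX and in TBI+DEIX against control. Gpx1, the cytosolic enzyme and the most abundant gene of the list, measured 1087, 1155 and 1465 FPKM in control, 1456, 1112 and 1228 in TBI, 571, 1344 and 1453 in TBI+DEIX, and 1305, 1356 and 1113 in DEIX. TBI+DEIX replicate 1, at 570.7 FPKM, was the lowest library, and the other TBI+DEIX libraries lay among the rest. Gpx4, which reduces lipid peroxides in membranes, had the same shape, with 142.0 FPKM in TBI+DEIX replicate 1 and 236.7 to 342.6 elsewhere. Of the 75-base stretches of Gpx4, 29.8% also occur in the pseudogene Gpx4-ps2, so its level depends on how shared reads were counted. Gpx3, a secreted enzyme, ranged from 8.26 to 22.4 FPKM. In DEIX and in TBI+DEIX all its libraries lay above control, with 0.71 (SE 0.26, adjusted p 0.0565) for TBI+DEIX against control.

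Among the glutathione transferases, Mgst3 showed the second largest difference of the list. Mgst3 (chromosome 1, 167371966 to 167393841, minus strand) encodes a microsomal enzyme with transferase and peroxidase activity. It measured 29.2, 28.3 and 30.2 FPKM in control, 40.7, 16.5 and 33.8 in TBI, 1.87, 11.9 and 6.56 in TBI+DEIX, and 16.2, 32.7 and 15.7 in DEIX. The TBI+DEIX libraries lay below all others, and replicate 1 of that group was the lowest of all. TBI replicate 2 and DEIX replicates 1 and 3 lay between them and the control libraries. The difference was -2.21 (SE 0.49) for TBI+DEIX against control and -2.17 (SE 0.49) for TBI+DEIX against TBI, given as a description. Without TBI+DEIX replicate 1 they were -1.61 and -1.57, and with array weights the difference from TBI was -1.08. DEIX against control, tested, gave -0.50 (SE 0.49, adjusted p 0.574), and TBI against control gave -0.04 (SE 0.49, adjusted p 0.975).

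Gsto1 (chromosome 19, 47854970 to 47864790, plus strand), an omega-class enzyme with thiol transferase activity, measured 49.7, 53.2 and 52.1 FPKM in control, 43.5, 44.3 and 44.0 in TBI, 43.6, 34.8 and 36.3 in TBI+DEIX, and 53.6, 67.4 and 45.1 in DEIX. It fell in TBI+DEIX against control, a difference of -0.43 (SE 0.14, adjusted p 0.0337), and all TBI libraries also lay below all control libraries, with -0.23 (SE 0.14, adjusted p 0.407) for TBI against control. The fall was lost without any 1 of the control libraries or TBI+DEIX replicate 2 or 3. Mgst1, the most abundant transferase, measured 289, 315 and 365 FPKM in control, 340.5, 309 and 244 in TBI, 107, 451 and 448 in TBI+DEIX, and 376, 288 and 351 in DEIX. In TBI+DEIX it was lowest of all libraries in replicate 1 and highest in replicates 2 and 3. Without replicate 1 it was called higher in TBI+DEIX against control and against TBI, while with it the difference from control was -0.20 (SE 0.44). The remaining transferases, Mgst2 (79.2 to 167.8 FPKM), Gstm1 (91.6 to 154.1) and Gstp1 (18.7 to 71.7), were not called in the unweighted fit over all libraries, although Mgst2 was called in TBI+DEIX against control without TBI+DEIX replicate 1. Gstp1 was lowest in TBI+DEIX replicate 1. Of the 75-base stretches of Gstp1, 29.2% occur in Gstp2 as well, and of those of Gstm1, 11.7% occur in other genes of its family and pseudogenes.

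The peroxiredoxins split in direction. Prdx6 (chromosome 1, 161240112 to 161251219, minus strand), which reduces phospholipid peroxides with the help of glutathione, measured 88.6, 92.4 and 93.9 FPKM in control, 113, 115 and 123 in TBI, 134, 129.8 and 131 in TBI+DEIX, and 113, 101 and 104 in DEIX. No group overlapped another: control was lowest, then DEIX, then TBI, then TBI+DEIX. The DEIX and TBI neighbours in that order were close, with 112.6 FPKM as the highest DEIX and 113.0 as the lowest TBI library. It rose in TBI against control, by 0.35 (SE 0.09, adjusted p 0.0464), a call lost with each left-out library, and in TBI+DEIX against control, by 0.52 (SE 0.09, adjusted p 0.00163), a call that held with each but was lost on the TPM scale, also without the failed estimates (adjusted p 0.0514).

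Prdx2 (chromosome 8, 84969587 to 84974834, plus strand), abundant in red cells, moved the other way. It measured 183, 196 and 242 FPKM in control, 249, 168 and 319.9 in TBI, 76.8, 120.2 and 75.4 in TBI+DEIX, and 97.5, 247 and 93.1 in DEIX. The TBI+DEIX libraries lay below all control and TBI libraries, and DEIX replicates 1 and 3 lay with them while DEIX replicate 2 did not. Prdx2 fell in TBI+DEIX against control, a difference of -1.20 (SE 0.36, adjusted p 0.0276), and in TBI+DEIX against TBI, a difference of -1.41 (SE 0.36, adjusted p 0.0379). The fall from control was lost without any 1 of the control libraries or TBI+DEIX replicate 1 or 3. The fall from TBI was lost without TBI replicate 1 or 3 or TBI+DEIX replicate 3, with no filter, on the TPM scale, with only the compared groups and with the replicate block. Of its exonic bases 11.5% overlap genes on the opposite strand.

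Prdx3 (chromosome 19, 60864051 to 60874556, minus strand), the mitochondrial peroxiredoxin, measured 60.6, 64.4 and 63.9 FPKM in control, 69.9, 70.8 and 98.0 in TBI, 43.6, 55.6 and 41.2 in TBI+DEIX, and 46.1, 62.9 and 43.8 in DEIX. TBI libraries lay above control and TBI+DEIX libraries below it. It fell in TBI+DEIX against TBI, a difference of -0.75 (SE 0.17, adjusted p 0.0297), and TBI+DEIX against control gave -0.43 (SE 0.17, adjusted p 0.0794). The call was lost without TBI replicate 2 or 3 or TBI+DEIX replicate 3, on the TPM scale and with only the compared groups. Prdx1 (chromosome 4, 116685544 to 116700822, plus strand), a cytosolic enzyme, measured 157, 178 and 159.9 FPKM in control, 151, 164 and 159.5 in TBI, 76.1, 137 and 130.1 in TBI+DEIX, and 168, 157 and 137 in DEIX. Its TBI+DEIX libraries lay below all control and TBI libraries, with replicate 1 far below the others. Prdx1 fell in TBI+DEIX against control, a difference of -0.57 (SE 0.19, adjusted p 0.0445), a call lost without any 1 of the control libraries, with no filter, with only the compared groups and with the replicate block. Without TBI+DEIX replicate 1 the fall was still called, at -0.30.

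Prdx5, found in mitochondria, peroxisomes and cytosol, was the most abundant peroxiredoxin. It measured 659.5, 777 and 853 FPKM in control, 879, 879 and 853 in TBI, 438, 1291 and 1382 in TBI+DEIX, and 995, 730.2 and 831 in DEIX. As for Mgst1, TBI+DEIX held both the lowest library and the 2 highest, and no comparison called it in the unweighted fit over all libraries. Prdx4, of the endoplasmic reticulum, ranged from 10.2 to 28.4 FPKM and was not called in the unweighted fit of FPKM over all libraries. It was called lower in TBI+DEIX without TBI+DEIX replicate 3, against TBI and against control. Srxn1 (chromosome 2, 152105516 to 152111376, plus strand), sulfiredoxin, which repairs overoxidised peroxiredoxins, was low. It measured 1.79, 1.89 and 1.48 FPKM in control, 2.92, 2.57 and 2.65 in TBI, 2.91, 3.02 and 2.71 in TBI+DEIX, and 1.84, 2.92 and 1.70 in DEIX. All TBI and TBI+DEIX libraries lay above all control libraries, as did DEIX replicate 2. It rose in TBI+DEIX against control, by 0.51 (SE 0.14, adjusted p 0.0182), and TBI against control gave 0.45 (SE 0.14, adjusted p 0.113). The rise was lost without control replicate 3.

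Catalase and superoxide dismutase 1 were lower in TBI+DEIX. Cat (chromosome 2, 103453849 to 103485160, minus strand) encodes catalase, which splits hydrogen peroxide in peroxisomes and in red cells. It measured 27.7, 26.4 and 25.2 FPKM in control, 30.5, 29.3 and 31.7 in TBI, 19.8, 24.3 and 20.1 in TBI+DEIX, and 21.3, 30.6 and 24.0 in DEIX. TBI libraries lay above control, TBI+DEIX libraries below it, and DEIX libraries on both sides. Cat fell in TBI+DEIX against TBI, a difference of -0.50 (SE 0.13, adjusted p 0.0393), and TBI+DEIX against control gave -0.30 (SE 0.13, adjusted p 0.104). Leaving out any 1 TBI library or TBI+DEIX replicate 3 ended the call. The call was also lost with no filter, on the TPM scale with or without the failed estimates, with only the compared groups and with the replicate block.

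Sod1 (chromosome 16, 90220754 to 90226329, plus strand), the cytosolic copper-zinc dismutase and the most abundant gene of this group, measured 314, 327 and 368 FPKM in control, 281, 308 and 342 in TBI, 157, 243 and 235 in TBI+DEIX, and 239, 309.5 and 238 in DEIX. Libraries of TBI+DEIX lay below all control and TBI libraries, with replicate 1 the lowest. Sod1 fell in TBI+DEIX against control, a difference of -0.69 (SE 0.18, adjusted p 0.0157). The call was lost without control replicate 3 or with only the compared groups, and held without TBI+DEIX replicate 1, where the difference was -0.49. Its longest coding transcript has 641 bases, in the class of length that was low in that library. Sod2, the mitochondrial manganese enzyme, ranged from 9.53 to 19.6 FPKM, highest in TBI+DEIX replicate 1, and was not called in the unweighted fit over all libraries, though without TBI+DEIX replicate 3 it was called higher in TBI+DEIX against control. Of the 75-base stretches of Sod2, 16.2% occur in other genes.

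The reductases of the thioredoxin system moved in opposite directions. Txnrd1 (chromosome 10, 82833951 to 82897712, plus strand), the cytosolic thioredoxin reductase, measured 29.2, 28.3 and 26.8 FPKM in control, 37.7, 43.6 and 44.7 in TBI, 53.6, 49.5 and 46.8 in TBI+DEIX, and 43.3, 35.2 and 35.8 in DEIX. TBI+DEIX libraries lay above all others and control libraries below all others, with TBI and DEIX overlapping between them. Txnrd1 rose in TBI against control, by 0.56 (SE 0.11, adjusted p 0.0151), in DEIX against control, by 0.42 (SE 0.11, adjusted p 0.0387), and in TBI+DEIX against control, by 0.81 (SE 0.11, adjusted p 0.000512), the lowest adjusted p given for any gene of the list. The rise in TBI+DEIX held under every left-out library and setting. The rise in TBI held only without TBI replicate 1 among the left-out libraries.

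Txnrd2 (chromosome 16, 18426384 to 18479073, plus strand), the mitochondrial reductase, measured 18.5, 16.9 and 19.1 FPKM in control, 22.8, 16.0 and 24.3 in TBI, 5.93, 11.8 and 6.58 in TBI+DEIX, and 10.6, 18.1 and 9.39 in DEIX. TBI+DEIX libraries lay below all control and TBI libraries, and DEIX replicates 1 and 3 lay below control as well. Txnrd2 fell in TBI+DEIX against control, a difference of -1.13 (SE 0.27, adjusted p 0.00941), under every left-out library and setting, and in TBI+DEIX against TBI, a difference of -1.31 (SE 0.27, adjusted p 0.0205), which was lost without TBI replicate 3 or TBI+DEIX replicate 3.

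Txn1, cytosolic thioredoxin and the most abundant of these genes, measured 198, 252 and 256 FPKM in control, 252, 224 and 209 in TBI, 108, 331 and 347 in TBI+DEIX, and 356, 194 and 219 in DEIX. TBI+DEIX replicate 1 was the lowest library and the other TBI+DEIX libraries were among the highest, with DEIX replicate 1. Txn2, mitochondrial thioredoxin (46.7 to 86.2 FPKM), and Glrx, glutaredoxin (125.5 to 335.2 FPKM), were not called in the unweighted fit over all libraries. Without TBI+DEIX replicate 1 Glrx was called in TBI+DEIX against control and against TBI. Glrx had the shape of Mgst1, lowest in TBI+DEIX replicate 1 and highest in replicates 2 and 3.

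Messenger RNA of the NRF2 pathway genes was not called by limma in any comparison of the unweighted fit over all libraries, nor did any of the 3 reach an unadjusted p under 0.05 there. Without TBI+DEIX replicate 1, Nfe2l2 was called higher in TBI+DEIX against control, and with array weights each of the 3 was called in 1 comparison or more. Nfe2l2, which encodes NRF2 itself, measured 69.2, 72.5 and 70.4 FPKM in control, 79.2, 76.7 and 83.6 in TBI, 57.7, 92.7 and 99.5 in TBI+DEIX, and 76.3, 65.3 and 79.5 in DEIX. All TBI libraries lay above control, and TBI+DEIX held the lowest library (replicate 1) and the 2 highest. Keap1, the inhibitor of NRF2, stayed within 19.8 to 26.03 FPKM, and Nqo1, a quinone reductase and well-known NRF2 target, within 4.18 to 7.89 FPKM. The differences of these 3 genes from control lay between -0.16 and 0.29 over TBI, DEIX and TBI+DEIX. NRF2 is controlled largely through protein stability, which these data do not measure.

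Of the 4 genes listed for NADPH supply 3 rose in TBI+DEIX against control, beside 16.9% of all tested genes. Of these 3, G6pdx and Pgd encode enzymes that make NADPH, while Tkt encodes another enzyme of the same pathway. G6pdx (chromosome X, 74409483 to 74429194, minus strand) encodes the enzyme at the entry of the pentose phosphate pathway, which makes NADPH. It measured 167, 163 and 169 FPKM in control, 321, 255 and 214 in TBI, 365, 434 and 560.1 in TBI+DEIX, and 428, 239.6 and 313 in DEIX. Control libraries lay below all others within a narrow range, TBI+DEIX lay above TBI, and DEIX overlapped both. G6pdx rose in TBI+DEIX against control, by 1.42 (SE 0.23, adjusted p 0.00135), and in DEIX against control, by 0.93 (SE 0.23, adjusted p 0.0344). TBI against control gave 0.64 (SE 0.23, adjusted p 0.163). The rise in TBI+DEIX held under every left-out library and setting. Of its exonic bases 13.6% overlap Ikbkg on the opposite strand.

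Pgd (chromosome 4, 149149991 to 149166771, minus strand), the next NADPH-making enzyme of that pathway, measured 338, 344 and 373 FPKM in control, 499, 450.5 and 416 in TBI, 424, 665 and 740.3 in TBI+DEIX, and 584, 429.6 and 552 in DEIX. All libraries of the treated groups lay above control and overlapped one another. It rose in TBI+DEIX against control, by 0.75 (SE 0.21, adjusted p 0.0187), a call lost without control replicate 1 or 2 or TBI+DEIX replicate 2 or 3. Tkt (chromosome 14, 30548359 to 30574720, plus strand), transketolase, which returns pentose sugars to glycolysis and was the most abundant of the 4, measured 425, 469 and 577 FPKM in control, 647, 598 and 693 in TBI, 863, 766 and 864 in TBI+DEIX, and 730.0, 549 and 682 in DEIX. TBI+DEIX libraries lay above all others, and TBI above control. Tkt rose in TBI+DEIX against control, by 0.77 (SE 0.17, adjusted p 0.00639), a call that held with each left-out library but was lost on the TPM scale, unless the failed estimates were kept out of the sum. Taldo1, transaldolase, was not called in the unweighted fit over all libraries, with 283.1 FPKM in TBI+DEIX replicate 1 and 434.6 to 713.5 elsewhere.

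Marrow is a mixture, and markers of red cell precursors, neutrophils and promyelocytes were abundant here, as the label of whole marrow implies. In bulk RNA fewer cells of a type and less RNA per cell cannot be told apart. Markers of red cell precursors were lower in TBI+DEIX, as were the genes called lower there. Over 19 erythroid markers (of 20 listed), summed FPKM was 6072, 5540.5 and 8564 in control, 2491, 12245 and 2222 in DEIX, 13058, 2986 and 5580.4 in TBI, and 567, 2638 and 774 in TBI+DEIX. None was at 0 in any library. The sum was low in TBI+DEIX replicates 1 and 3, and DEIX replicate 2 stood far above the other DEIX libraries. Within groups the order of libraries was shared in part. Of 9 genes called or described as lower (Gclc, Mgst3, Gsto1, Prdx1, Prdx2, Prdx3, Cat, Sod1 and Txnrd2), 8 were highest in the same DEIX library as the sum, replicate 2, with Prdx1 the exception. In TBI+DEIX 7 were highest in replicate 2 with the sum, Gclc and Gsto1 being highest in replicate 1. Among the TBI libraries the sum was highest in replicate 1, and of the 9 genes only Mgst3 was highest there. In control 4 of the 9 shared the highest library with the sum. These 9 were picked as lower in these data, and the order of other genes was not counted, so the counts have no background. In TBI+DEIX, replicate 1 was also low for short transcripts.

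Of the 19 tested erythroid markers 12 (63.2%) fell in TBI+DEIX against control, beside 13.1% of all tested genes (median -1.84 over the 19). In TBI+DEIX against TBI 5 of them (26.3%) fell, beside 3.41% of all tested genes (median -1.70 over the 19). None of the 19 was called by limma in TBI against control or DEIX against control, with 1 at an unadjusted p under 0.05 in each. The most abundant, Hba-a1, Hbb-bs and Hba-a2, are globin genes with close copies, so the split of reads between them is uncertain. Hba-a1 had a mean of 2273 FPKM in control, 1824 in DEIX, 2287 in TBI and 352 in TBI+DEIX. The part of erythroid RNA in the lower values of these antioxidant genes was not tested.

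**Figure D5:**
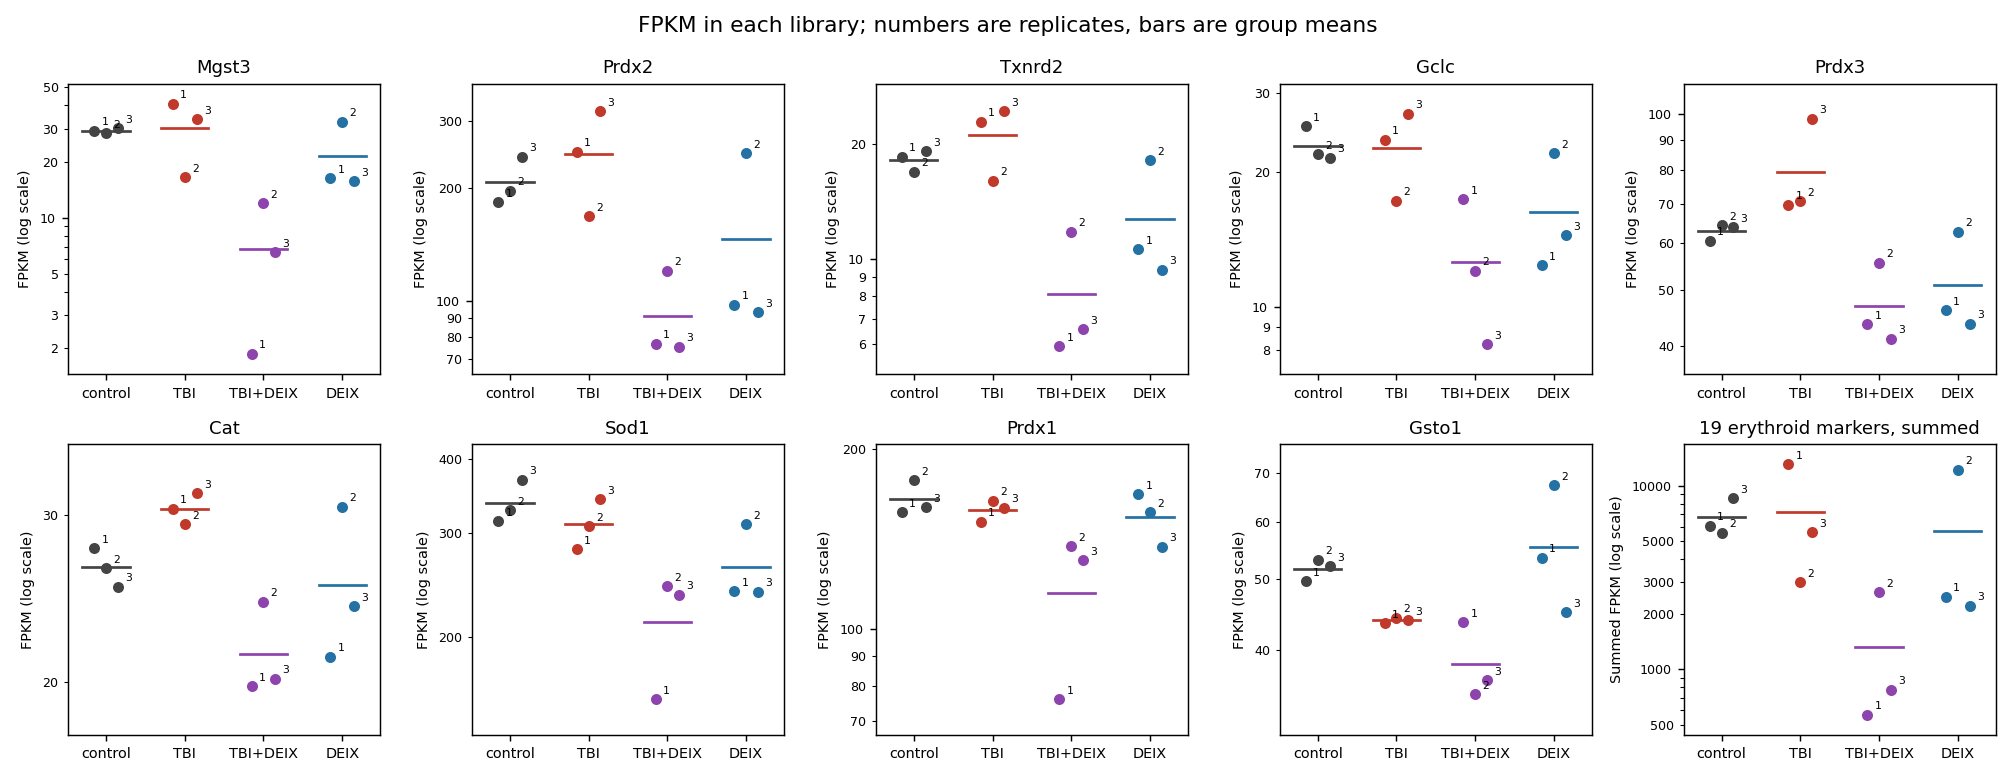
FPKM (log axis) of the 9 genes called lower in TBI+DEIX or described as lower there, and the summed FPKM of 19 erythroid markers (last panel), in each library of the 4 groups, with the replicate number beside each point and a bar for the group mean. Within DEIX, replicate 2 is the highest in all panels but that of Prdx1, with 12245 summed FPKM of erythroid markers beside 2491 and 2222 in replicates 1 and 3. Within TBI the erythroid sum and Mgst3 are highest in replicate 1, and the other genes in replicate 2 or 3.

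Several markers of maturing neutrophils were higher in TBI+DEIX and DEIX. Of 17 tested, 7 rose in TBI+DEIX against control and 3 in DEIX against control, 1 rose in TBI+DEIX against TBI, none was called by limma in TBI against control (2 at an unadjusted p under 0.05), and none fell in these comparisons. Of all tested genes 16.9%, 4.52% and 4.69% were higher in the first 3 of these comparisons, so the 1 of 17 in TBI+DEIX against TBI, 5.88%, was near the background. The medians over the 17 were 0.94, 0.61, 0.51 and 0.24. S100a8, S100a9 and Ngp, the most abundant, had values of exactly 0 in some libraries while all other libraries had them at the top of the table, which was read as a failed estimate, and were left out of the sum, though they are among the 17. The other 14 summed to between 22891 and 31652 FPKM in control, 28129 and 38359.5 in DEIX, 26776 and 33373 in TBI, and 22924 and 55442 in TBI+DEIX, with the lowest TBI+DEIX value in replicate 1. Mgst1, Prdx5, Glrx and Taldo1 had the same order of TBI+DEIX libraries against the rest, low in replicate 1 and high in replicates 2 and 3. Their longest coding transcripts, of 1167 to 1362 bases, also lie in the length class that was low in replicate 1. By contrast, Ggt1, Ggt5, Gsr, Prdx6, Txnrd1 and Tkt were high in all 3. Their longest coding transcripts, of 2167 to 4410 bases, lie in the length classes that were not low in replicate 1. The part of neutrophil RNA or transcript length in the higher values was not tested.

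Lists for other cell types were read in the same way. In TBI+DEIX against control, markers that fell were 10 of 12 for the B lineage, 7 of 9 for megakaryocytes and platelets, 4 of 7 for stem and progenitor cells, 4 of 10 for T and NK cells, 3 of 11 for eosinophils, basophils and mast cells, 2 of 6 for stroma and endothelium and 1 of 7 for promyelocytes, and none of these lists had a marker that rose. Of all tested genes 13.1% were lower in that comparison, so the promyelocyte share, 14.3%, was near the background. Of 14 markers of monocytes and macrophages 1 rose and 2 fell in that comparison, while 3 rose and 3 fell in DEIX against control. In TBI+DEIX against TBI 2 rose and 1 fell, and in TBI against control 1 rose and 3 fell. The shares called, in this order, were 21.4%, 42.9%, 21.4% and 28.6%, beside 30.0%, 7.24%, 8.1% and 3.99% of all tested genes. Ly6c2, a surface marker of inflammatory monocytes and the most abundant of the 14, had a mean of 1520.2 FPKM in control, 1585 in DEIX, 1274 in TBI and 1459 in TBI+DEIX. Ccr2, the receptor that draws monocytes out of marrow, had 135, 252, 141 and 107 FPKM in the same order, and F13a1, a coagulation factor chain of monocytes, 119, 235, 125 and 90.3. In TBI against control 5 of 9 megakaryocyte and platelet markers and 3 of 12 B lineage markers fell, beside 3.1% of all tested genes. So did 2 of 7 stem and progenitor markers and 1 of 10 markers of T and NK cells. Of eosinophil, basophil and mast cell markers 1 of 11 fell there, and of 6 for stroma and endothelium 1 fell and 1 rose. In DEIX against control 1 of 9 megakaryocyte and platelet and 3 of 12 B lineage markers fell, beside 2.72% of all tested genes. The same held for 2 of 11 eosinophil, basophil and mast cell markers and 2 of 6 for stroma and endothelium. The B lineage sum was 464 to 561 FPKM in control, 74.6 to 113 in DEIX, 32.5 to 387 in TBI and 8.90 to 192 in TBI+DEIX. Fcmr (B lineage) and Bglap (stroma) were at 0 in 1 or more libraries. Of 12 proliferation genes 4 fell in TBI+DEIX against TBI, beside 3.41% of all tested genes. In TBI+DEIX against control 2 of the 12 fell, 16.7%, which was near the 13.1% of all tested genes. The part of these cell types in the values of the antioxidant genes was not tested.

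The list was set beside 95 other genes of glutathione, thioredoxin, NRF2 and NADPH metabolism, of which 73 were tested. TBI against control called 2 higher and 1 lower, or 4.11%, beside 3.99% of all tested genes. DEIX against control called 4 higher and 3 lower (9.59%, beside 7.24%), TBI+DEIX against TBI 3 higher and 5 lower (11%, beside 8.1%), and TBI+DEIX against control 13 higher and 17 lower (41.1%, beside 30.0%). Their medians in that order were 0.04, -0.05, -0.08 and 0.03, beside 0.05, 0.02, 0.00 and 0.02 for all tested genes. Aifm2, which protects membranes from lipid peroxidation by reducing coenzyme Q, rose in TBI against control, by 0.61 (SE 0.14, adjusted p 0.0315), in TBI+DEIX against TBI, by 0.55 (SE 0.14, adjusted p 0.0353), and in TBI+DEIX against control, by 1.16 (SE 0.14, adjusted p 0.00032). Ptges, the glutathione-dependent prostaglandin E synthase, rose in TBI, by 0.56 (SE 0.12, adjusted p 0.0241), and in TBI+DEIX, by 0.93 (SE 0.12, adjusted p 0.000432), both against control. Both rises in TBI+DEIX over control held under each left-out library and setting. The rises in TBI were called in 1 of 6 fits with a library left out, and that of Aifm2 over TBI in 3 of 6, and all of these were lost on the TPM scale with and without the failed estimates.

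Bach2, a repressor that competes with NRF2 at its sites and is abundant in B cells, fell against control in TBI, a difference of -2.27 (SE 0.40, adjusted p 0.0104), in DEIX, a difference of -2.30 (SE 0.40, adjusted p 0.0096), and in TBI+DEIX, a difference of -3.03 (SE 0.40, adjusted p 0.000512). Markers of the B lineage fell in the same groups, with 3, 3 and 10 of 12 called, and their part in Bach2 was not tested. Its relative Bach1, which represses haem oxygenase, rose in DEIX against control, by 0.58 (SE 0.13, adjusted p 0.0254), and in TBI+DEIX against TBI, by 0.49 (SE 0.13, adjusted p 0.0434). Hmox1, haem oxygenase itself, rose in TBI+DEIX against TBI, by 0.78 (SE 0.19, adjusted p 0.0353). That call was lost without TBI replicate 2 or 3 or TBI+DEIX replicate 2, and those of Bach1 were called in 1 of 6 (DEIX) and 2 of 6 (TBI+DEIX) fits with a library left out. On the TPM scale, with or without the failed estimates, none of these Bach1 and Hmox1 calls held, while the fall of Bach2 was lost without control replicate 1 in TBI, without DEIX replicate 1 in DEIX, and under no left-out library in TBI+DEIX. Slc3a2, the heavy chain shared by the cystine transporter and others, rose in TBI+DEIX against control, by 0.74 (SE 0.20, adjusted p 0.0184), and Dpep2, a dipeptidase that acts after gamma-glutamyl transferase, rose in DEIX against control, by 1.68 (SE 0.38, adjusted p 0.0286). The call of Slc3a2 held in 3 of 6 and that of Dpep2 in 2 of 6 fits with a library left out.

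Lower genes of this set included Gstm5, a transferase, in TBI+DEIX against control, a difference of -1.57 (SE 0.38, adjusted p 0.0102), and against TBI, a difference of -1.50 (SE 0.38, adjusted p 0.0362). Glrx5, a mitochondrial glutaredoxin needed for iron-sulphur clusters and haem, fell in TBI+DEIX against TBI, a difference of -1.11 (SE 0.27, adjusted p 0.0339), and Blvrb, a biliverdin reductase abundant in red cells, in TBI+DEIX against control, a difference of -1.33 (SE 0.38, adjusted p 0.0228). Cbr1, a carbonyl reductase, fell in TBI+DEIX against TBI, a difference of -0.64 (SE 0.16, adjusted p 0.0368), and in DEIX against control, a difference of -0.81 (SE 0.16, adjusted p 0.0176), while its relative Cbr3 rose in DEIX, by 0.69 (SE 0.12, adjusted p 0.0108), at a mean of 1.33 FPKM. Pgls, the lactonase between G6pdx and Pgd, fell in DEIX against control, a difference of -0.59 (SE 0.15, adjusted p 0.0444), a call lost with each left-out library, beside the rise of G6pdx. With a library left out, the fall of Gstm5 held in 6 of 6 fits against control and 2 of 6 against TBI, that of Glrx5 in 3 of 6 and that of Blvrb in 2 of 6. The fall of Cbr1 held in 3 of 6 against TBI and 1 of 6 in DEIX, and the rise of Cbr3 in 3 of 6.

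The interaction of TBI and DEIX asks whether DEIX acted differently in irradiated and in unirradiated mice. None of the 35 genes other than Ggt1 and Mgst3 was called by limma, beside 0.2% of all tested genes (22 genes, 0.191% higher and 0.0091% lower). An unadjusted p under 0.05 was found for 1 of them, Cat. The interaction of Cat was -0.42 (SE 0.18, adjusted p 0.611), and that of Mgst3, as a description, -1.66 (SE 0.69). For Ggt5 it was 0.13 (SE 0.25), for Gsr 0.01 (SE 0.18) and for Txnrd2 -0.77 (SE 0.38). A p that misses the threshold does not show that DEIX acted alike with and without irradiation, and with 3 libraries a group these SEs leave room for sizeable differences, for Txnrd2 in particular.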

How the data were processed

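RNA sequencing of whole bone marrow gave 12 libraries in 4 groups of 3, made with a directional MGI kit from total RNA, per the labels' protocols. The deposited table holds FPKM per gene and library, computed by the authors. The submitters' processing notes name STAR 2.6, Cufflinks 2.2.1 and the mm10 build, without roles. The annotation, strand setting and handling of shared reads are not given in the sources used here. All 21853 identifiers matched protein-coding genes of GENCODE vM21 (GRCm38), the source of symbols and coordinates. As FPKM is no count, count models were not applied. Genes at 1 FPKM or more in 3 or more libraries (10994) were fitted as log2(FPKM + 1) with limma 3.58.1 in R 4.3.3 (lmFit, eBayes with a trend) in 1 model of 4 group means, with 8 residual degrees of freedom, 5 contrasts and an adjusted p threshold of 0.05. The script was tested on simulated data. Total reads are unknown, so no depth-based interval is given. Alternatives were other pseudocounts, filters, scalings (1 of them added after seeing the data), weights, fits on the compared groups, a replicate block and leaving out each library. The members, gene lists and tests were chosen with earlier results of these data known. Values in every library are given for Ggt1, each member called in a contrast and the most abundant member of each role. Of other pathway genes at most the 3 called with the largest change per direction and contrast are named, and of marker lists the 3 most abundant tested genes and markers at 0.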

Additional observations from a re-analysis of the deposited data

How the results depend on the processing

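In the comparisons above, 53 results for single genes gave 790 values under alternatives: 564 kept direction and side of the threshold (for Ggt1 and Mgst3 where given with no test, moved by less than the SD between libraries), 223 kept direction but lost the call, 1 gained one, 2 values without a test moved further and 0 reversed. Counts of calls moved more. Over all genes, TBI against control (439) gave 253 on the TPM scale, 4218 with array weights, 134 at a mean FPKM of at least 5, 675 with no filter and 1417 with only the compared groups. TBI+DEIX against TBI (891) gave 157 on the TPM scale, 4488 with weights and 0 with only these groups. DEIX against control (796) gave 282, 4508 and 2057, and TBI+DEIX against control (3299) gave 1785, 6187 and 2181, in that order. The interaction (22) gave 532 with weights, 7 at a mean of at least 5, 37 with no filter and 11 with a pseudocount of 0.1. Of the listed genes counted in each comparison (37, 35, 36, 35 and 35 in the order of the left-out results below), TBI against control (2 called) gave 0 on the TPM scale, 14 with weights, 4 with only the compared groups and 1 each at a mean of at least 5, on the median-of-ratios scale and with a pseudocount of 0.1. TBI+DEIX against TBI (6) gave 1 on the TPM scale, 20 with weights and 0 with only these groups. DEIX against control (4) gave 1 on the TPM scale and 15 with weights, and TBI+DEIX against control (14) gave 9 and 26. Leaving out 1 library gave 0 to 1, 0 to 14, 0 to 4, 8 to 20 and, for the interaction, 0 to 0 of the listed genes, and 153 to 259, 5 to 2836, 146 to 938, 2004 to 4232 and 4 to 331 of all genes, each in the order of TBI over control, TBI+DEIX over TBI, DEIX over control, TBI+DEIX over control, interaction. With the TPM sum taken without S100a8, S100a9 and Ngp, chosen after seeing the data, TBI against control gave 291 of all genes and 0 of the listed, TBI+DEIX against TBI 488 and 6, DEIX against control 408 and 2, TBI+DEIX against control 2553 and 14, and the interaction 28 and 0; higher calls were then 29.9% in TBI+DEIX against TBI, 49.0% in DEIX and 38.5% in TBI+DEIX against control. Values moved further were Ggt1 in TBI+DEIX against control (3.57 with a pseudocount of 0.1) and Mgst3 in TBI+DEIX against TBI (-1.08 with weights). The cause of these moves was not tested, except that fits with only the compared groups use 6 libraries. The TPM scale moved the median of all genes from 0.00 to -0.12 in TBI+DEIX against TBI and from 0.02 to -0.12 in DEIX against control, and the share of calls that were higher from 22.3% to 9.49% in TBI, 57.9% to 34.4% in TBI+DEIX against TBI, 62.4% to 19.1% in DEIX and 56.2% to 30.6% in TBI+DEIX against control. That share was 56.7% in TBI with weights and 39.8% with only the compared groups, and at a mean FPKM of at least 5 it was 77.1% in DEIX and 66.7% in TBI+DEIX against control. Replicate numbers did not pair the libraries: deviations of same-numbered libraries correlated at -0.447 to 0.242 over 18 pairs, 3 of them over 0.1. With the replicate block, 1, 3, 1, 13 and 0 of the listed genes and 378, 474, 640, 3000 and 20 of all genes were called, in the same order.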

Other observations

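Ratios between paired enzymes of one library do not depend on the scaling between libraries. The 3 pairs here were picked after their values were seen, so they are given without a test. The ratio of Gclm to Gclc, the modifier to the catalytic subunit of glutamate-cysteine ligase, was 1.69, 1.99 and 1.89 in control, 2.68, 2.72 and 2.46 in TBI, 3.47, 4.76 and 6.22 in TBI+DEIX, and 5.64, 2.55 and 3.05 in DEIX. All libraries of the treated groups lay above control, and TBI+DEIX lay above TBI.

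The ratio of Txnrd1 to Txnrd2, the cytosolic to the mitochondrial thioredoxin reductase, was 1.58, 1.67 and 1.4 in control, 1.65, 2.72 and 1.84 in TBI, 9.03, 4.2 and 7.1 in TBI+DEIX, and 4.08, 1.94 and 3.81 in DEIX. TBI+DEIX lay above all others, and DEIX replicate 2 was again the DEIX library nearest to control. Ggt1 to Ggt5 gave 0.279, 0.236 and 0.338 in control, 0.826, 0.522 and 0.56 in TBI, 1.48, 1.43 and 2.01 in TBI+DEIX, and 1.4, 0.315 and 0.681 in DEIX, so Ggt1 exceeded Ggt5 in all TBI+DEIX libraries and in DEIX replicate 1.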
